A study of Mus musculus with 2 samples.

Results

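Regulatory T cells (Tregs) were examined among the CD45+ immune cells of B16F10 tumours, a transplantable mouse melanoma line grown under the skin and collected at day 10. The KO library came from Lyz2-Cre-Kcnj2f/f mice and the WT library from Kcnj2f/f mice, so both carried the floxed Kcnj2 allele and differed in Cre. Lyz2-Cre acts in macrophages, monocytes and neutrophils, and Kcnj2 encodes Kir2.1, an inwardly rectifying potassium channel. Tumours of 3 mice were pooled for each of the 2 libraries, so there was 1 library per genotype, and differences between mice cannot be told apart from differences between genotypes. A barcode was selected as a Treg on its measured UMIs (unique molecular identifiers, counted RNA molecules). It had at least 1 UMI of Cd3d, Cd3e or Cd3g, at least 1 of Foxp3 and at least 2 summed over Il2ra, Ctla4, Ikzf2, Tnfrsf4 and Tnfrsf18. It had at most 1 UMI of Cd8a and Cd8b1, at most 2 of the cell cycle genes Mki67, Top2a and Birc5, and at most 1 of the B cell and myeloid genes Cd79a, Csf1r and Lyz2. The rule found 99 Tregs in KO and 53 in WT, 152 of 14624 kept barcodes.

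Tregs are CD4 T cells whose identity depends on the transcription factor FOXP3. They restrain other lymphocytes through inhibitory cytokines such as interleukin-10, through CTLA-4, which removes co-stimulatory ligands from antigen-presenting cells, and through capture of interleukin-2 by the high-affinity receptor chain that Il2ra encodes. In tumours they often carry receptors of the TNF receptor family, such as OX40 (Tnfrsf4), GITR (Tnfrsf18) and 4-1BB (Tnfrsf9), while resting Tregs that circulate between blood and lymph nodes use the sphingosine-1-phosphate receptor S1pr1 and the transcription factor KLF2.

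After removal of barcodes with under 200 genes or over 15% mitochondrial UMIs, 5688 KO and 8936 WT barcodes were kept, with medians of 8026 and 4398.5 UMIs. Tregs held a median of 6208 UMIs in KO and 3834 in WT, or 724973 and 283967 UMIs in all. The gap was smaller over all T cells, Tregs included, with medians of 4759 UMIs in KO and 4564.5 in WT. Shares of cells with a UMI are therefore also given with every cell thinned at random to 2000 UMIs. The libraries had 63 barcode sequences in common, which 2 KO Tregs and 0 WT Tregs carried. Kcnj2 itself had 0 UMIs in the Tregs and in the conventional CD4 T cells of both libraries, so the deletion could not be checked in these cells.

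The rule fixed the levels of its own marker genes, which are given as a description and do not test the label. Foxp3 (GRCm38 chromosome X, 7573644 to 7595245, plus strand) had 501 CPM in KO and 528 CPM in WT (counts per 1e6 UMIs, summed over the Tregs of a library), with a median of 3 UMIs per cell in KO and 2 in WT. Ikzf2, which encodes Helios, had UMIs in 97.0% of KO and 94.3% of WT Tregs, and Ctla4 in 93.9% and 86.8%. Il2ra was found in 65.7% of KO and 50.9% of WT Tregs. The 5 markers beside Foxp3 summed to a median of 44 UMIs per KO Treg and 23 per WT Treg, but to 6814 CPM in KO and 5793 CPM in WT. Shares of Tregs with a UMI were not thinned in this paragraph, and KO Tregs were deeper. Cd4, which the rule did not read, had UMIs in 72.7% of KO and 62.3% of WT Tregs. B cells, which should lack Foxp3, gave the background:  0 of 366 in KO, which allows a share of up to 0.820%, and 1 of 1177 in WT, or 0.0850%, had a UMI, at median depths of 3389.5 and 3065 UMIs.

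Just inside the rule, 25 KO and 20 WT Tregs had a single Foxp3 UMI, and 3 and 2 had only 2 or 3 UMIs of the other markers. Just outside it, 59 KO and 65 WT T cells had no Foxp3 UMI but at least 10 UMIs of the other 5 markers. A further 19 KO and 9 WT barcodes met every condition but the limit on cell cycle genes. They would have been 16.1% (95% exact interval 9.98 to 24.0) of such Tregs in KO and 14.5% (6.86 to 25.8) in WT.

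No doublet caller was run. Some Treg barcodes carried many MHC class II UMIs (Cd74, H2-Aa, H2-Ab1 and H2-Eb1), genes of antigen-presenting cells: 8 of 99 in KO and 4 of 53 in WT had at least 49, while the others had at most 18 in KO and 17 in WT. Those barcodes were deep, with medians of 16116 UMIs in KO and 15393 in WT, and held 17.4% and 22.4% of all Treg UMIs. The 12 dendritic cell markers summed to 357 CPM in KO and 440 CPM in WT Tregs, and to 40.1 and 54.5 CPM without these barcodes. The comparisons are therefore also given without them. The 10 NK and CD8 T cell markers summed to 2132 CPM in KO and 2204 CPM in WT Tregs. The 7 neutrophil markers summed to 13.8 CPM in KO and 21.1 CPM in WT, and the 8 melanoma markers to 15.2 and 45.8 CPM. The NK cell gene Ncr1 and the B cell genes Ms4a1 and Pax5 had 0 UMIs in Tregs of both libraries. The 11 B cell markers summed to 392 CPM in KO and 581 CPM in WT, of which Ighm gave 272 and 384 CPM. The 8 gamma-delta T cell markers summed to 30.3 CPM in KO Tregs and were at 0 in WT Tregs. The 15 macrophage and monocyte markers summed to 532 CPM in KO and 732 CPM in WT, of which Plac8, which lymphocytes also express, gave 378 and 595 CPM. The part of these markers in the results was not tested beyond leaving out the MHC class II-rich barcodes.

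Tregs formed a larger part of the T cells in the KO tumours. They were 8.75% of T cells in KO (99 of 1132, 95% exact Clopper-Pearson interval 7.16 to 10.5) and 1.64% in WT (53 of 3228, 1.23 to 2.14), a ratio of 5.33. All intervals here cover counting error only. With the rule applied again to cells thinned to 2000 UMIs, the share was 6.91% in KO (70 of 1013) and 1.66% in WT (46 of 2775), a ratio of 4.17. Against conventional CD4 T cells, the class nearest to them, Tregs were 30.5% of both classes together in KO (25.5 to 35.8) and 10.6% in WT (8.03 to 13.6), and 31.7% and 14.1% after thinning. Of all kept barcodes they were 1.74% in KO and 0.593% in WT, and 1.37% and 0.686% after thinning. CD8 T cells, also part of the T cell total, numbered 354 in KO and 1619 in WT. Without the MHC class II-rich barcodes, Tregs were 9.25% of KO and 1.65% of WT T cells. With 1 library per genotype these shares have no replicate check and no test.

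**Figure D1:**
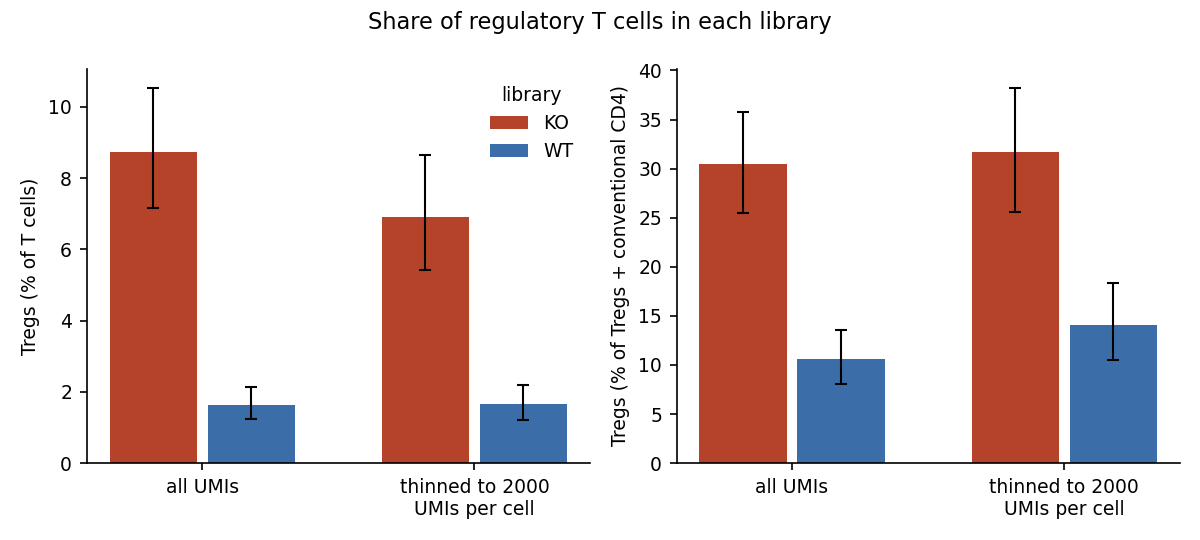
Tregs as a percentage of T cells (left) and of Tregs and conventional CD4 T cells together (right), in the KO and WT library, from all UMIs and after thinning each cell to 2000 UMIs; bars are shares and lines exact 95% binomial intervals. The KO share lies above the WT share in all 4 pairs, with intervals that do not overlap, for example 8.75% and 1.64% of T cells.

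The Treg programme was read against conventional CD4 T cells (Cd4 but no Foxp3 UMI, 226 in KO and 448 in WT) on genes that neither rule had used. That class had no limit on the other Treg markers. It could therefore hold some of the 59 KO and 65 WT T cells rich in them without a Foxp3 UMI, and their part was not tested. UMIs were summed per class and library, and edgeR's quasi-likelihood test asked which class differences were alike in both libraries, with the library as a block. The 2 libraries, of different genotype, were its only replication. Of 9123 genes tested, 462 were higher in Tregs (5.06%) and 414 lower (4.54%) at a Benjamini-Hochberg adjusted p under 0.05, and 874 of these 876 had the same direction within each library. DESeq2 called 277 higher and 208 lower.

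Most suppressive mediators were higher in Tregs. Of the 15 tested, 11 were higher in Tregs and 0 lower, with a median log2 fold change of 2.08, against -0.01 over all genes tested. Gene lists here and below were chosen with earlier results of these data known. Their counts and medians are therefore a description and do not test a programme. Itgb8 encodes the integrin chain that releases active TGF-beta from its latent form. It had 149 CPM in KO and 91.6 CPM in WT Tregs, against 0 and 0.922 CPM in KO and WT conventional CD4 T cells. Those were 134 UMIs in Tregs and 2 in conventional cells over both libraries, a ratio of 222 with a counting interval of 60.2 to 1851. DESeq2 gave Itgb8 an adjusted p of 0.119, the edgeR fit 3.7e-08. Lrrc32 encodes GARP, which holds latent TGF-beta on the cell surface, and stood at 93.8 CPM in KO Tregs and 35.2 CPM in WT Tregs, against 4.26 and 4.15 CPM in KO and WT conventional cells (log2 fold change 3.71 ± 0.47 SE, adjusted p = 1.6e-05). Both genes were higher in Tregs than in conventional cells within each library.

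Areg, the gene of the epithelial growth factor amphiregulin, had 390 CPM in KO Tregs and 387 CPM in WT Tregs. In conventional CD4 T cells it had 5.97 CPM in KO and 18.4 CPM in WT, which made a log2 fold change of 4.82 ± 0.28 SE (adjusted p = 5.1e-10). Few Tregs carried it, 27.3% in KO and 26.4% in WT. Il10, the gene of interleukin-10, had 226 CPM in KO and 70.4 CPM in WT Tregs, against 9.38 and 9.22 CPM in conventional cells (log2 fold change 3.79 ± 0.36 SE, adjusted p = 6.7e-07). Gzmb, which encodes granzyme B, had 2014 CPM in KO and 1123 CPM in WT Tregs, against 278 and 247 CPM in conventional cells (2.48 ± 0.16 SE). Ebi3, a subunit of interleukin-35, rose by 2.17, and Entpd1, the ectoenzyme CD39 that breaks down ATP, by 1.44.

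Of 18 tested genes listed for activated tumour Tregs, 11 were higher in Tregs and 1 was lower, with a median log2 fold change of 0.83. Klrg1, an inhibitory receptor of differentiated lymphocytes, had 451 CPM in KO and 197 CPM in WT Tregs, against 18.8 and 12.5 CPM in conventional cells (4.46 ± 0.33 SE, adjusted p = 1.3e-08). Itgae, the gene of the E-cadherin-binding integrin CD103, rose by 4.37. The chemokine receptor gene Ccr8 rose by 3.38 and Tnfrsf9 by 3.14. Il1rl1, which encodes the interleukin-33 receptor ST2, rose by 2.62. The member that was lower was Cxcr6, a chemokine receptor gene, at 38.6 CPM in KO Tregs and 56.3 CPM in WT Tregs, against 379 and 646 CPM in conventional cells (-3.47 ± 0.19 SE, adjusted p = 2.2e-10).

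Other genes among the 15 highest were Neb, Wls, Cd81, Snx9, Itgav, Ets2, Arl5a and Bmyc. They rose by 2.63 to 4.94 on the log2 scale. Wls carries Wnt proteins to the cell surface, and Itgav encodes the alpha-v integrin chain that pairs with the product of Itgb8. Itgav had 492 CPM in KO and 328 CPM in WT Tregs, against 81.0 and 31.4 CPM in conventional cells. Both chains of that integrin were thus among the genes named.

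Among 26 tested transcription factor genes of the Treg list, 7 were higher and 3 lower in Tregs. Ikzf4, which encodes Eos, a FOXP3 partner, rose most, by 3.53 ± 0.48 SE (adjusted p = 4.6e-05). Prdm1 (Blimp-1) rose by 1.21, Rel (an NF-kappaB subunit) by 1.05 and Nfil3 by 1.38. Tcf7, the TCF-1 gene of naive and stem-like T cells, fell to 13.8 CPM in KO and 14.1 CPM in WT Tregs, against 187 and 164 CPM in conventional cells (-3.76 ± 0.27 SE, adjusted p = 6.4e-09). Lef1 fell by 1.19 and Runx3 by 0.98.

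Tcf7 and Cxcr6 were among the 10 lowest. Of the other genes there, Ifng, the interferon-gamma gene, had 20.7 CPM in KO and 10.6 CPM in WT Tregs, against 184 and 249 CPM in conventional CD4 T cells (-3.71 ± 0.35 SE, adjusted p = 3.5e-07). Cd40lg, the ligand with which helper T cells activate antigen-presenting cells, fell by 3.44, the survival gene Bcl2 by 3.39 and the granzyme gene Gzmk by 3.22. Gzmk rested on 1 UMI in KO Tregs and 8 UMIs in WT Tregs, and DESeq2 gave it an adjusted p of 0.129. Themis, Ly6c2, Evl and Ifi208 completed the 10 lowest and fell by 2.41 to 3.23. Of 16 tested cytokine and receptor genes, 6 were lower, among them Csf2, Lta and Tnf, and 2 higher, Il12rb1 and Il6st. Il2, the cytokine that Tregs consume, was lower as well (-3.00 ± 0.90 SE, adjusted p = 0.036). It rested on 1 UMI in KO Tregs and 1 UMI in WT Tregs (1.38 and 3.52 CPM).

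Of 8 resting and recirculating T cell genes tested, 5 were lower in Tregs (Dapl1, Ly6c2, Klf2, S1pr1 and Cd69) and 0 higher, with a median log2 fold change of -1.15. Cd69 counts in this list although its product opposes S1PR1, so its fall runs against the name of the list. Dapl1 had 0 UMIs in Tregs of both libraries against 45 in conventional cells, which is at least 4.53-fold lower with 3 UMIs over both libraries as the floor. Of 11 heat shock genes tested, 5 were lower and 0 higher. Hspa1a and Hspa1b were both among them, and being near-identical copies their reads may be split. Of 16 glycolysis genes tested, 5 were higher and 0 lower, led by the lactate transporter gene Slc16a3 at 1.97 ± 0.31 SE. Of 14 MHC class I genes, 4 were higher and 0 lower, by 0.44 to 0.53. Oxidative phosphorylation had 1 higher of 29 tested.

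**Figure D2:**
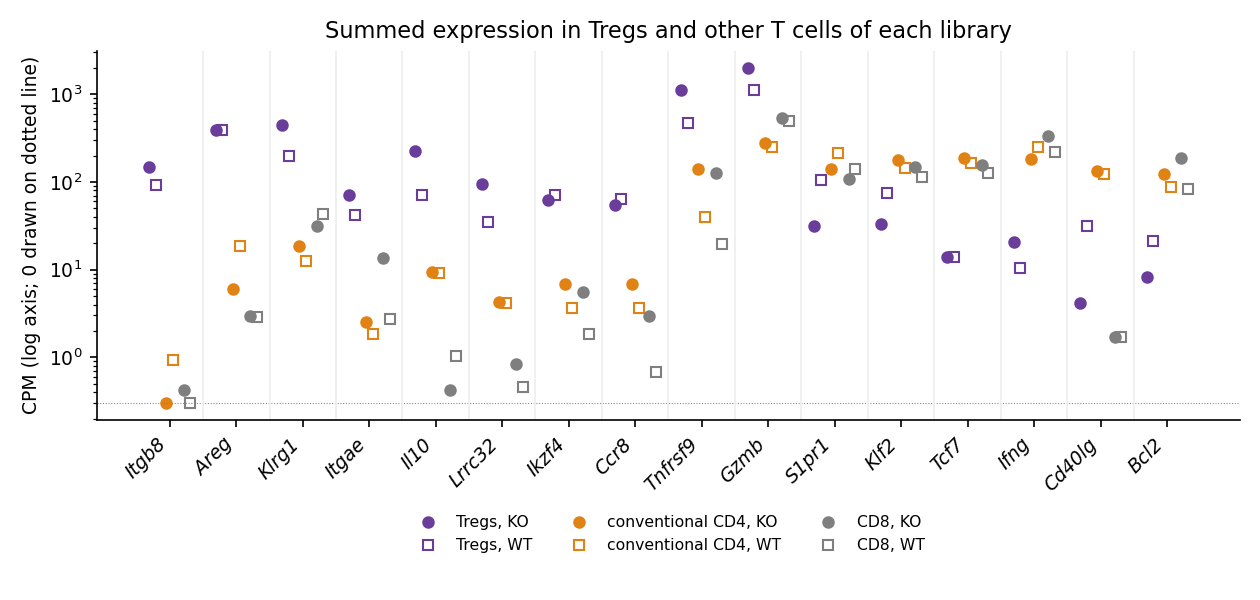
Expression in CPM (log axis) summed over Tregs, conventional CD4 T cells and CD8 T cells, with the KO library as filled circles and the WT library as open squares; values of 0 are drawn on the dotted line. Itgb8, Areg, Klrg1, Itgae, Il10, Lrrc32, Ikzf4 and Ccr8 lie higher in Tregs of both libraries than in either other class, and Tcf7, Ifng and Bcl2 lie lower.

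Against CD8 T cells, in the same fit, 801 of 9126 genes were higher in Tregs (8.78%) and 699 lower (7.66%). DESeq2 called 534 and 352. The 6 highest were Itgb8, Areg, Il10, Neb, Izumo1r and Penk. Izumo1r, the folate receptor 4 gene, rose by 4.41 and Penk, the proenkephalin gene, by 4.38, but Penk UMIs came from only 9.09% of KO and 9.43% of WT Tregs. The 6 lowest were Cd160, Gzma, Xcl1, Gzmk, Ly6c2 and Klrc1. Gzma and Gzmk encode granzymes and Xcl1 a chemokine. Cd160 had 0 UMIs in the Tregs of both libraries, against 211 in KO and 1115 in WT CD8 T cells, at least 40.2-fold lower with the same floor. Gzmb went the other way from Gzma: it was higher in Tregs than in CD8 T cells, at 2014 CPM in KO Tregs and 1123 CPM in WT Tregs against 537 and 501 CPM in KO and WT CD8 T cells (1.42 on the log2 scale). Lag3 and Havcr2, inhibitory receptor genes that were higher in Tregs than in conventional CD4 T cells, did not pass the test against CD8 T cells, at 0.56 and 0.07.

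Leaving out the MHC class II-rich barcodes from every class gave 543 higher and 463 lower genes against conventional CD4 T cells, of which 409 and 371 were called alike. Other classes held such barcodes too: conventional CD4 T cells had 13 in KO and 24 in WT, and CD8 T cells 24 and 68.

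Within Tregs, KO and WT were compared gene by gene as the ratio of summed CPM, KO over WT, with an exact conditional binomial 95% interval. A gene counted as higher or lower when it differed at least 2-fold, its interval left out 0 and it had at least 20 UMIs in all. Of 5786 genes, 111 were higher in KO (1.92%) and 160 lower (2.77%), and the median log2 ratio was -0.01. These counts compare 2 libraries and have no p-value. Without the MHC class II-rich barcodes 124 were higher and 142 lower, of which 151 in all were called alike. In bulk sums of this kind, a lower value can come from fewer expressing cells or from fewer molecules per cell.

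Among 14 suppressive mediators tested, 4 were higher in KO Tregs and 1 lower, with a median log2 ratio of 0.48. The median was 0.77 without the MHC class II-rich barcodes. Il10 had 226 CPM in KO and 70.4 CPM in WT Tregs (log2 ratio 1.68, interval 1.01 to 2.43). It was detected in 32.3% of KO and 18.9% of WT Tregs, and in 14.9% and 10.2% after thinning. Much of it came from few cells, since 5 Tregs held 65.2% of the Il10 UMIs in KO. Lrrc32 had 93.8 CPM in KO and 35.2 CPM in WT (1.41, interval 0.45 to 2.54), and Ebi3 110 CPM in KO and 52.8 CPM in WT (1.06, interval 0.26 to 1.97). Ebi3 was also higher in KO conventional CD4 T cells (1.23, interval 0.38 to 2.11), while Il10 stood there at 0.02.

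Prf1, the perforin gene, had 42.8 CPM in KO and 10.6 CPM in WT Tregs, on 31 and 3 UMIs, with a log2 ratio of 2.02 and an interval of 0.34 to 4.37. Gzmb lay at 0.84, interval 0.67 to 1.02, under the 2-fold limit, with UMIs in 74.7% of KO and 50.9% of WT Tregs and in 67.0% and 44.9% after thinning. Areg did not differ between the libraries beyond counting error (0.01, interval -0.31 to 0.34), but stood at 0.67 without the MHC class II-rich barcodes. Nt5e, the CD73 gene whose product makes adenosine, was the member that was lower, with 71.7 CPM in KO and 151 CPM in WT (-1.08, interval -1.69 to -0.46). With at least 2 Foxp3 UMIs required per cell, Nt5e turned to 0.29.

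Tnfrsf9 (GRCm38 chromosome 4, 150914562 to 150946102, plus strand) encodes 4-1BB, a co-stimulatory receptor that T cells put up after antigen receptor signals. Tregs had 1119 CPM of it in KO and 465 CPM in WT (log2 ratio 1.27, interval 0.9999 to 1.54). Of KO Tregs 85.9% had a UMI and of WT Tregs 54.7%, or 72.3% and 34.7% after thinning. The call held under all 11 alternatives tried, but some of these could hardly undo a call. Dropping the minimum of 20 UMIs left ratios and intervals as they were, and leaving out shared barcodes kept all 271 calls. The ratio of Tnfrsf9 was 1.48 without the MHC class II-rich barcodes. The other T cells of the same libraries went the same way: conventional CD4 T cells had 140 CPM in KO and 39.7 CPM in WT, a log2 ratio of 1.82, and CD8 T cells 127 and 19.7 CPM, a ratio of 2.68.

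The promoter of Tnfrsf9 is shown because this gene was higher both in Tregs against conventional CD4 T cells and in KO Tregs against WT Tregs. RefSeq (GRCm38.p6) gives 2 start sites, and of these the window at chr4:150927749-150928048, plus strand, from 250 bases before to 50 after the start, reads
Tnfrsf9: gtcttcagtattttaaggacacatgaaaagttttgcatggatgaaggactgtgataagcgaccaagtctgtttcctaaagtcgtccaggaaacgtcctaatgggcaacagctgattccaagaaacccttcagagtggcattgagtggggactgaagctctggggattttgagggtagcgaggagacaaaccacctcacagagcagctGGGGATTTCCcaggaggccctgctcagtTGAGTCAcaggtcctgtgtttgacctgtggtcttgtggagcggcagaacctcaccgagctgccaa
Capitals mark a match to a form of the NF-kappaB motif (3 G, any 2 bases, 3 T and 2 C) at bases 208 to 217, and one to TGANTCA, the AP-1 motif, at bases 236 to 242. Both strands were searched, and the AP-1 match is read on either. Among 32851 such promoters, 1.63% held the first motif and 7.81% the second. The window at the other start site held neither. Windows of Foxp3, Ebi3, Il2ra, Klf2, Areg and Itgb8 were searched as well and held neither motif. That of Gzmb held an AP-1 match alone. Other genes, among them Ebi3, Klrg1, Il10 and Lrrc32, were also higher in both comparisons, so the reason for showing Tnfrsf9 does not set it apart. No windows are given for Klrg1, Il10 and Lrrc32. A match describes the letters and is not a measured site of binding.

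Klrg1 stood at 451 CPM in KO Tregs and 197 CPM in WT Tregs (log2 ratio 1.19, interval 0.78 to 1.63). It was detected in 71.7% of KO and 45.3% of WT Tregs, and in 48.9% and 26.5% after thinning. The ratio was 0.92 with at least 2 Foxp3 UMIs per cell and 0.98 in cells with no cell cycle UMI, both under the limit. Of the 18 tested genes listed for activated tumour Tregs, Tnfrsf9 and Klrg1 were the 2 higher, Il1rl1 was the 1 lower and the median was 0.50. Without the MHC class II-rich barcodes 6 of 17 were higher, adding Cd81, Itgae, Lgals3 and Il1r2, and Nrp1 joined Il1rl1 among the lower.

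Of those 18 genes, 14 had a ratio above 0. Il1rl1, the interleukin-33 receptor gene, had 49.7 CPM in KO and 130 CPM in WT Tregs (-1.39, interval -2.10 to -0.69), with UMIs in 14.1% of KO and 22.6% of WT Tregs and in 8.51% and 16.3% after thinning. All 11 alternatives kept that call. In conventional CD4 T cells Il1rl1 was lower in KO as well, with 8.53 CPM in KO and 17.5 CPM in WT (-1.04). Nrp1, the neuropilin-1 gene, had 37.2 CPM in KO and 73.9 CPM in WT (-0.99, interval -1.87 to -0.09). Ccr8 and Icos, both common on tumour Tregs, did not differ beyond counting error, at -0.20 and 0.08.

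**Figure D3:**
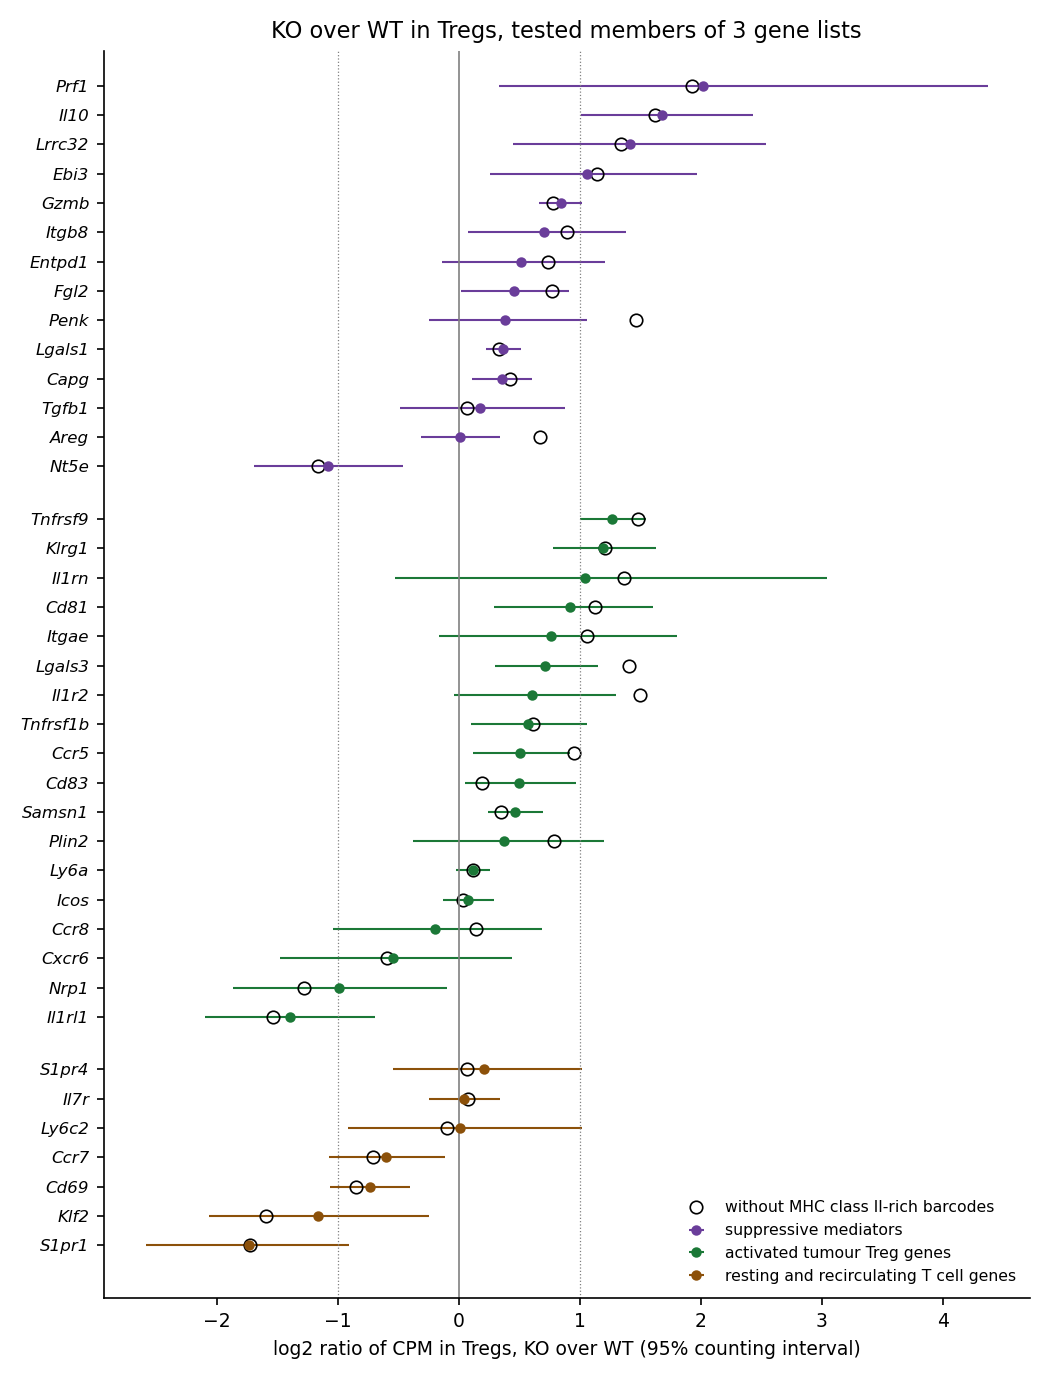
Log2 ratio of CPM in Tregs, KO over WT, for the tested members of 3 gene lists; points and lines are ratios with exact 95% counting intervals, open circles are ratios without the MHC class II-rich barcodes, and dotted lines mark 2-fold. Il10, Tnfrsf9 and Klrg1 lie above 1, while Nt5e, Il1rl1, S1pr1 and Klf2 lie below -1.

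Between the libraries, 2 of 7 resting and recirculating T cell genes tested were lower in KO Tregs and 0 higher, with a median log2 ratio of -0.60. S1pr1 lets T cells leave tissue along a sphingosine-1-phosphate gradient. Its level was 31.7 CPM in KO and 106 CPM in WT Tregs (-1.74, interval -2.59 to -0.90). Of its UMIs, 5 Tregs held 56.5% in KO and 63.3% in WT. Klf2, a transcription factor that drives S1pr1, had 33.1 CPM in KO and 74.0 CPM in WT (-1.16, interval -2.07 to -0.24). It was detected in 2.13% of KO and 22.4% of WT Tregs after thinning, a single random draw. Before thinning, without the MHC class II-rich barcodes, it was detected in 14.3% of KO and 28.6% of WT Tregs. Lef1, on the transcription factor list, had 44.1 CPM in KO and 95.1 CPM in WT (-1.11, interval -1.89 to -0.31).

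These 3 genes rested on 23 to 32 UMIs in KO Tregs. After thinning S1pr1 was at -1.68 and Klf2 at -2.94, and neither met the limit on UMIs and interval. Lef1 lost its call after thinning (-0.78), with at least 2 Foxp3 UMIs per cell (-0.997) and as a mean over cells (-0.95). With at least 2 Foxp3 UMIs per cell Klf2 was at -0.47, under the limit. Cd69, which counts in the list and its median although it opposes S1PR1 at the cell surface, was at -0.73. Ccr7 was at -0.60 and Il7r at 0.04, so the list did not move as a whole. In conventional CD4 T cells, S1pr1 had 139 CPM in KO and 214 CPM in WT, and Klf2 178 and 143 CPM. Klf2 thus ran opposite ways in the 2 classes, a difference that was not tested.

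**Figure D4:**
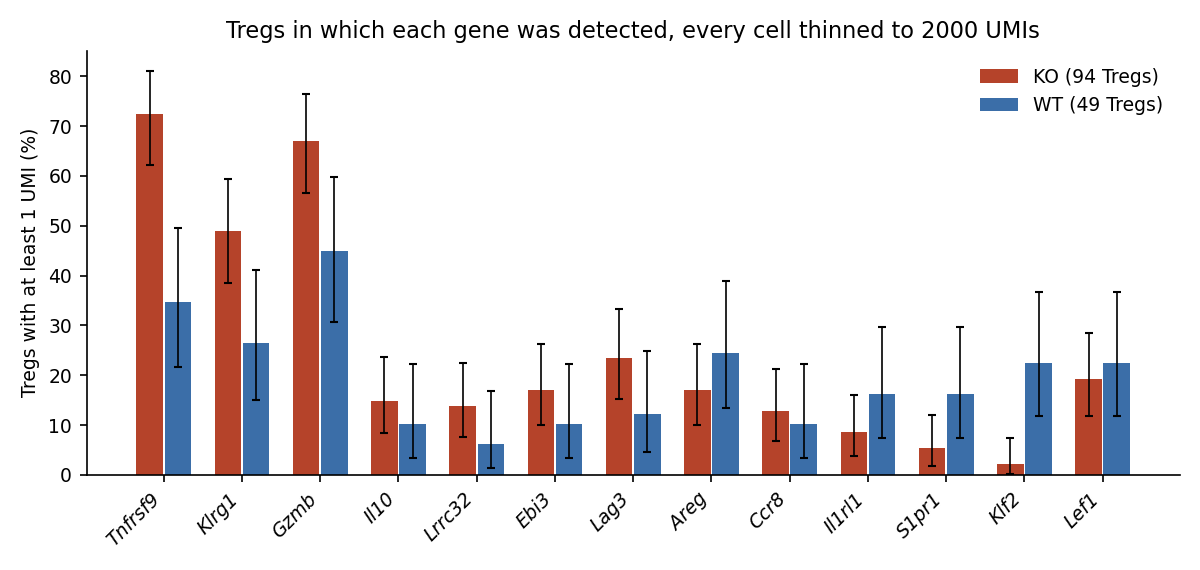
Percentage of Tregs with at least 1 UMI of each gene after every Treg was thinned to 2000 UMIs, for 94 KO and 49 WT Tregs; bars are shares and lines exact 95% binomial intervals. Tnfrsf9 (72.3% in KO, 34.7% in WT) and Klf2 (2.13% in KO, 22.4% in WT) have intervals that do not overlap in this single random draw. Before thinning, without the MHC class II-rich barcodes, Klf2 was found in 14.3% of KO and 28.6% of WT Tregs.

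The 10 highest ratios by the naming rule were those of Fabp5, Ccl3, Il10, Ccrl2, Ccl4, Sytl2, Il1b, Mt1, Lrrc32 and Mea1. Several sat in few cells: 5 KO Tregs held 92.8% of the Il1b UMIs and 83.1% of the Fabp5 UMIs. Il1b, an inflammatory cytokine gene, had 808 CPM in KO and 285 CPM in WT, a log2 ratio of 1.503, and 0.07 without the MHC class II-rich barcodes. Fabp5, a fatty acid carrier gene, had a ratio of 3.36, and 1.40 with these left out. The chemokine genes Ccl3 and Ccl4 had ratios of 2.25 and 1.59, and 3.06 and 2.76 without them. With all barcodes kept, these 2 genes sat in few cells as well. In each library 5 Tregs held most of the Ccl3 UMIs, and they held 70.6% of the Ccl4 UMIs in KO and 86.4% in WT. Both chemokine genes were also higher in KO conventional CD4 T cells, Ccl3 by 1.31 and Ccl4 by 2.07. Ccrl2 and Sytl2 were spread over more cells, with UMIs in 48.5% of KO and 24.5% of WT Tregs and in 53.5% and 17.0%.

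The 10 lowest were Irf4, Serpinb6b, S1pr1, Rb1, Man1a2, Psmd10, Trim12a, Evi2a, Ms4a4b and Socs3. Irf4, a transcription factor of effector Tregs, had 20.7 CPM in KO and 95.1 CPM in WT (-2.20, interval -3.22 to -1.24). Without the MHC class II-rich barcodes it stood at -1.76 and had under 20 UMIs. Serpinb6b reversed to 0.36 without them. Ms4a4b, a lymphocyte surface gene of a family of close copies, had 246 CPM in KO and 666 CPM in WT (-1.44, interval -1.74 to -1.14), and Trim12a, which also has a close copy, 48.3 and 148 CPM. Both kept their call under all 11 alternatives. Ms4a4b was detected in 50.5% of KO and 52.8% of WT Tregs, and 5 Tregs held 38.2% of its UMIs in KO and 55.6% in WT.

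Other lists held few genes past the limit, beside 1.92% higher and 2.77% lower over all 5786 genes tested. Glycolysis had 2 of 16 higher, Pgam1 and Slc16a3, and 0 lower, with a median of 0.38. Pgam1, which encodes phosphoglycerate mutase, had 172 CPM in KO and 77.5 CPM in WT (1.15, interval 0.49 to 1.88). Of 22 interferon-gamma response genes, Gbp5 was higher and Gbp2, Tgtp2 and Irf8 were lower. Irf8 was at -1.01 with all barcodes and 0.86 without the MHC class II-rich ones. Tgtp2 has a near-identical copy, so its reads may be split. The type I interferon response had 1 of 26 lower, Ifit2, and 0 higher, with a median of -0.36, and heat shock genes 1 of 11 lower, Hspa1b, with a median of -0.41. TCR signalling and immediate early genes (21 tested), MHC class I (14) and oxidative phosphorylation (29) had 0 in either direction, with medians of 0.12, 0.09 and 0.00. Checkpoint receptor genes had 2 of 13 higher, Lag3 and Btla, and 1 lower, Cd226. Lag3 had 170 CPM in KO and 84.5 CPM in WT (1.01, interval 0.37 to 1.70), while Btla rested on 1 WT UMI. Of 11 alternatives, Lag3 kept its call under 6, Slc16a3, Btla and Ifit2 under 4 and Gbp5 under 3. For Btla and Ifit2 these 4 were no UMI minimum, no shared barcodes, TMM scaling of library totals and the mean over cells.

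Tregs varied among themselves within each library. Klrg1 and Tnfrsf9 were found together in 65 of 99 KO and 17 of 53 WT Tregs, and neither was found in 8 KO and 17 WT Tregs. After thinning, 35 of 94 KO and 5 of 49 WT Tregs had both and 15 and 24 had neither. At least 1 UMI of S1pr1, Klf2, Lef1, Ccr7 or Tcf7 was present in 51.5% of KO and 62.3% of WT Tregs, or 31.9% and 46.9% after thinning. Of Tregs with a Tnfrsf9 UMI, 41 of 85 in KO and 16 of 29 in WT also had a UMI of those 5 genes, or 48.2% and 55.2%, against 71.4% and 70.8% of Tregs without Tnfrsf9. After thinning the shares were 30.9% with and 34.6% without Tnfrsf9 in KO, and 29.4% and 56.2% in WT.

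Tregs were also split by Klrg1, a gene chosen for this after its values had been seen, and some genes followed the split in both libraries while others did so in 1. With the MHC class II-rich barcodes left out, 67 KO and 20 WT Tregs had a Klrg1 UMI and 24 and 29 had none. Median depths were 6371 UMIs with and 5138.5 without in KO, and 3707 and 3737 in WT. Areg had 554 CPM in Klrg1-positive and 105 CPM in Klrg1-negative KO Tregs, a log2 ratio of 2.39 (interval 1.65 to 3.25). In WT it had 603 CPM in positive and 74.7 CPM in negative Tregs, a ratio of 3.01 (2.02 to 4.16). Gzmb had ratios of 1.40 in KO and 2.63 in WT, and Tnfrsf9 0.87 and 1.82. Il10 had ratios of 0.74 in KO and 1.75 in WT. All 8 of these intervals left out 0.

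Foxp3 did not follow Klrg1, with ratios of -0.01 in KO and 0.31 in WT and intervals that held 0. Other genes of the Treg rule were modestly higher with Klrg1 in both libraries, with intervals above 0. In KO and WT, Ctla4 had ratios of 0.47 and 0.71 and Tnfrsf4 0.56 and 0.70. Tnfrsf18 had ratios of 0.50 and 0.60, and Ikzf2 0.27 and 0.49. Ccr7, the lymph node homing receptor gene, was lower with Klrg1, at -2.51 in KO and -2.07 in WT, though the WT interval reached 0.08. Itgae was lower with Klrg1 in KO (-1.17, interval -2.02 to -0.29) and not resolved in WT (1.63, interval -0.59 to 4.26). Il1rl1 followed Klrg1 in WT, at 2.41 (interval 1.15 to 3.87), and stood at 0.96 in KO with an interval of -0.57 to 2.95. Il2ra, a gene of the Treg rule, had ratios of 2.02 in KO (1.29 to 2.85) and -0.12 in WT (-1.02 to 0.75). Lag3 had ratios of 1.11 in KO, with an interval above 0, and -0.63 in WT (-2.49 to 0.98). These splits are of cells within 1 library each and carry no test.

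**Figure D5:**
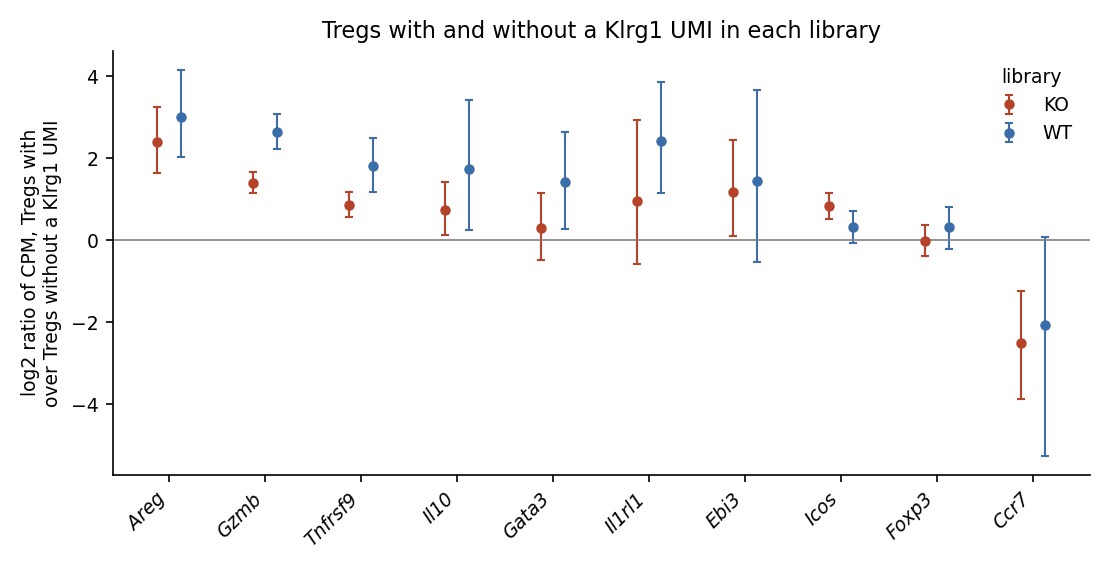
Log2 ratio of CPM in Tregs with a Klrg1 UMI over Tregs without one, in the KO library (67 and 24 cells) and the WT library (20 and 29 cells), without the MHC class II-rich barcodes; lines are exact 95% counting intervals. Areg, Gzmb, Tnfrsf9 and Il10 lie above 0 in both libraries, and Foxp3 lies near 0.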

How the data were processed

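The deposited files hold raw UMI counts per gene and barcode, whole numbers with no normalization, for 1 KO and 1 WT library made with the 10x Genomics 3' v3 kit, per the labels. Per the submitters' processing notes, reads were handled with Cell Ranger 3.1.0 after bcl2fastq 2.20, on GRCm38, and Seurat 4.0.1 was used, while the file headers give Cell Ranger 4.0.0, and no barcode had under 500 UMIs. Of 6356 KO and 9677 WT barcodes, 665 and 734 exceeded 15% mitochondrial UMIs, and 116 and 64 had under 200 genes. Gene coordinates came from GENCODE M21, which held each of the 55450 identifiers.

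Members and lists were chosen with earlier results of these data known, and 1 gene of the resting list is not reported here and was left out of its counts. T cells are barcodes with a Cd3 UMI that pass the limits on cell cycle, B cell and myeloid genes. Conventional CD4 T cells had Cd4, no Foxp3, Ncr1, Klrb1c or Trdc and at most 1 CD8 UMI, and CD8 T cells at least 2 CD8 UMIs with no Foxp3 or Cd4. Counts of KO over WT leave out the genes of the Treg rule, and class comparisons the genes of either rule. edgeR 4.0.16 (R 4.3.3; TMM, filterByExpr, quasi-likelihood, 3 residual degrees of freedom) was fitted to 8 sums, those of Tregs, conventional CD4 T cells, CD8 T cells and NK cells of each library; DESeq2 1.42.0 was an alternative. Intervals used scipy 1.17.1.

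Named genes needed a mean of at least 50 CPM. They were the 10 highest and 10 lowest ratios of KO over WT (with UMIs in at least 10% of the Tregs of the higher library), the 15 highest and 10 lowest called against conventional CD4 T cells and 6 and 6 against CD8 T cells, leaving out genes of the rules and sex-linked, haemoglobin, immunoglobulin, receptor, mitochondrial, ribosomal and unnamed genes, together with members of the lists. Doublets were not called; barcodes with at least 30 MHC class II UMIs or 10 dendritic marker UMIs were left out in an alternative added after the data had been seen.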

Additional observations from a re-analysis of the deposited data

Results flagged for a closer look

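Among the named genes and members of the lists, 5 genes had KO over WT ratios of opposite signs in Tregs and conventional CD4 T cells, with both counting intervals leaving out 0. How often this occurred over all genes was not counted. The difference was not tested, since each class had 1 library per genotype. Klf2 stood at -1.16 in Tregs and 0.31 in conventional cells, and Nt5e at -1.08 and 0.73. With at least 2 Foxp3 UMIs per cell, Klf2 was at -0.47 and Nt5e at 0.29 in Tregs. Gbp2, an interferon-induced guanylate-binding protein gene, stood at -1.35 in Tregs and 0.75 in conventional cells. Ifit2, another interferon-induced gene, was at -1.94 in Tregs, on 8 KO and 12 WT UMIs, and at 0.65 in conventional cells. After thinning Ifit2 was at 1.06 in Tregs. Serpinb6b was at -1.77 in Tregs and 0.96 in conventional cells, but at 0.36 in Tregs without the MHC class II-rich barcodes.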

How the results depend on the processing

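The Treg share of T cells lay outside the main interval in KO at 6.91% after thinning, and with at least 2 Foxp3 UMIs per cell it was 6.54% in KO and 1.02% in WT. KO stayed above WT under all 8 alternatives. Between the libraries, thinning left 56 genes higher and 63 lower in KO, of which 37 in all were called as before, and dropping the minimum of 20 UMIs gave 277 lower. Against conventional CD4 T cells, DESeq2 gave 277 higher and 208 lower and thinning 246 and 228. Against CD8 T cells, DESeq2 gave 352 lower, and thinning 402 higher and 377 lower. Thinning cuts the UMIs and the genes tested (6018 against conventional CD4 T cells). Values that reversed between KO and WT were Il1b (-0.97 with no CD8, B cell or myeloid UMI), Serpinb6b (0.25 without the deepest barcodes, 0.36 without the MHC class II-rich ones, 1.45 with no cell cycle UMI), Fscn1 (-0.15 with 2 Foxp3 UMIs, -0.30 without the deepest barcodes, -0.083 with 10 other marker UMIs), Ccl22 (0.99 with no cell cycle UMI) and Clec10a (-0.0060 likewise). Irf8 was at 0.48 thinned, 0.72 without the deepest barcodes, 0.25 with no CD8, B cell or myeloid UMI, 0.86 without the MHC class II-rich ones and 0.24 as a mean over cells, Nt5e at 0.29 with 2 Foxp3 UMIs, and Btla and Ifit2 at -0.20 and 1.06 thinned. The cause was not tested. The alternatives on MHC class II-rich and shared barcodes, on cell cycle UMIs and on 10 other marker UMIs were chosen after seeing the data. Lag3 kept its call under 6 of 11 alternatives, Prf1, Ebi3 and Lrrc32 under 8 and S1pr1 under 10. Such tallies include alternatives that could hardly undo a call. Dropping the UMI minimum and leaving out shared barcodes each kept all 271 calls. TMM scaling moved log2 ratios by 0.012, and the mean over cells was judged with the main intervals. Median ratios of the suppressive, activated and resting lists kept their sign throughout, at 0.45 to 0.83, 0.29 to 0.65 and -1.51 to -0.061. No paired analysis was possible because each genotype had 1 library; the class comparisons had the library as a block. With 53 WT Tregs, genes of few UMIs are not resolved.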
